A study of Oryza sativa with 18 samples.

Results

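The comparison set the leaf sheath transcripts of the rice line NIL-Bph6-RNAi after 6 h of brown planthopper feeding against those of the line NIL-Bph6 after the same 6 h. It uses 6 of the series' 18 Affymetrix rice arrays, 3 per line, chosen from the sample titles alone. NIL-Bph6 is a near-isogenic line that carries the planthopper resistance gene Bph6 and is labelled resistant. NIL-Bph6-RNAi is labelled susceptible and, by its name, is that line with an RNAi construct. Plants of both lines were 3 weeks old, at the four-leaf stage, raised in a growth chamber and fed on by the insect, so planthopper feeding is shared by both groups. The other 12 arrays are the same lines before feeding (0 h) and after 48 h of feeding. Replicates are labelled biological, with no statement of how many plants each holds or whether the RNAi line is 1 transformant. The growth notes say that the fourth leaf was used, while the tissue is given as leaf sheath. Titles and source names were followed where the description and cultivar fields went against them by naming another cultivar, a line NIL-BPH9 and earlier feeding times. No probe set was read for Bph6 itself, so its knockdown was not analysed here.

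The brown planthopper is a phloem-feeding pest that pushes its stylets through the leaf sheath to reach the sieve tubes. Plants meet it with jasmonate and salicylate signalling, callose and wall reinforcement, diterpenoid phytoalexins and enzyme inhibitors. The Bph6 product is known to associate with the exocyst, the complex that tethers secretory vesicles at the plasma membrane, and its resistance has been tied to cell wall upkeep and to salicylate, jasmonate and cytokinin signalling. The comparison asks which transcripts separated the lines early in feeding, and which of them separated the lines before feeding and at 48 h too.

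All values are deposited log2 MAS5 signals, and every difference is NIL-Bph6-RNAi minus NIL-Bph6 on the log2 scale, given ± SE with 3 arrays per line. Each 6 h array correlated with the others of its group at r of 0.952 to 0.960 on average. Signal of control genes at their 3' end minus that at their 5' end, which grows as RNA degrades, was 2.01, 1.98 and 2.07 in NIL-Bph6-RNAi and 1.88, 2.03 and 1.87 in NIL-Bph6. Photosynthesis genes, which mark green tissue, had a median level of 12.2 in NIL-Bph6-RNAi and 12 in NIL-Bph6. Genes listed for seed, anther and root had median levels of 5.18 in NIL-Bph6-RNAi and 4.78 in NIL-Bph6, under the overall median of 5.78. Of the 22, 10 lay below it on all 6 arrays, but the members went apart. GLB had means of 12.1 in NIL-Bph6-RNAi and 11.9 in NIL-Bph6, and Lsi6 of 11.7 and 11.6. GLUA-2, MSP1, Lsi1 and IRT1 also had means above 5.78 in both lines, so the low median does not hold for every member. In bulk tissue, fewer cells of a type and less RNA per cell cannot be told apart. The array also carries 64 probe sets for reporter and marker genes, which match no rice gene in the annotation. Only 7 of the 64 were kept in the test, and 1 was called at 6 h. The called one read 12.15, 12.24 and 12.72 on the NIL-Bph6-RNAi arrays, against 4.79, 4.88 and 5.08 on the NIL-Bph6 arrays. Its difference was 7.45 ± 0.61 (limma adjusted p = 2.43e-06), and 9.92 at 0 h and 7.51 at 48 h.

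At 6 h of feeding, 282 of 32732 probe sets differed between the lines, or 0.862%, at a Benjamini-Hochberg adjusted p under 0.05 in limma. Of these, 179 were higher in NIL-Bph6-RNAi (0.547%) and 103 were lower (0.315%). On all 282 the arrays of the lines did not overlap, which was also true of 17.6% of all probe sets tested. At an unadjusted p under 0.05 there were 3554. The differences were wide in size, with 211 probe sets at 2-fold or more, 122 at 4-fold or more and 54 at 16-fold or more. The platform annotation gave 1 gene for 172 of the 282, and a gene with a name rather than a locus number for 22. Those 22 probe sets stand for 21 named genes, 12 higher and 9 lower in NIL-Bph6-RNAi. All 21 are described here, by their roles except for cap2, which is given no role.

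**Figure D1:**
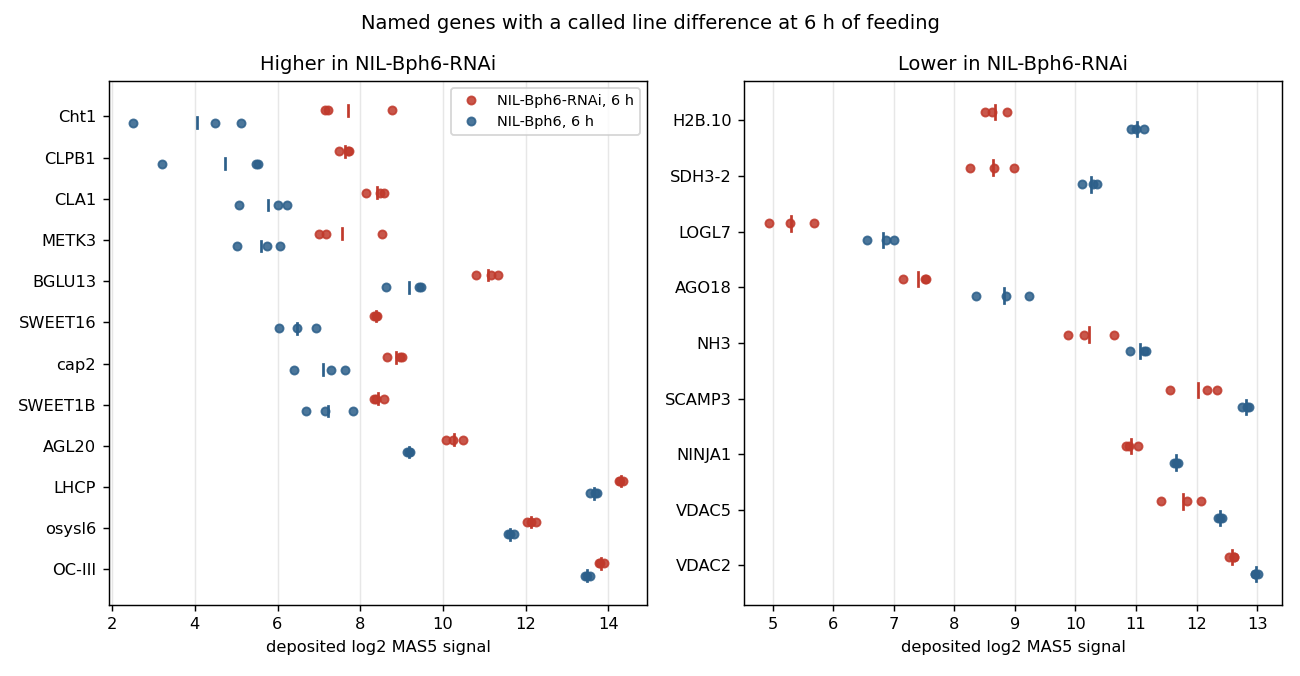
Deposited log2 MAS5 signal (horizontal axis) of the 21 named genes called at 6 h, with a point for each of the 3 NIL-Bph6-RNAi and 3 NIL-Bph6 arrays and a bar at each group's mean. The groups are separate for every gene, from 3.67 log2 units for Cht1 to 0.34 for OC-III on the higher side and from -2.35 for H2B.10 to -0.39 for VDAC2 on the lower side.

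Among defence genes, the chitinase gene Cht1 (LOC4338719) had the largest difference of a named gene. Chitinases cut chitin, the polymer of fungal walls and insect cuticle. Cht1 read 7.14, 7.21 and 8.76 in NIL-Bph6-RNAi, against 5.12, 2.51 and 4.49 in NIL-Bph6, so that its 3 NIL-Bph6 arrays lay below the overall median. It was higher in NIL-Bph6-RNAi by 3.67 ± 0.65 (adjusted p = 0.00823), and by 2.86 at 0 h and 2.88 at 48 h. Without NIL-Bph6-RNAi replicate 3 the adjusted p was 0.0564, and with only the 6 h groups in the fit 0.0962. A second gene that carries the name Cht1, LOC4342115, differed by 0.24 (adjusted p = 0.859). The oryzacystatin gene OC-III (LOC4338771) encodes an inhibitor of cysteine proteases, the kind that many insects use to digest protein. It read 13.79, 13.90 and 13.81 in NIL-Bph6-RNAi, against 13.44, 13.48 and 13.56 in NIL-Bph6, and was higher by 0.34 ± 0.07 (adjusted p = 0.0287). That call ended with quantile normalization, with median centring and without any 1 of the 6 arrays (adjusted p up to 0.131). OC-III differed by 0.19 at 0 h (adjusted p = 0.224) and by 0.33 at 48 h (adjusted p = 0.00579).

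NH3 (LOC4333666) and NINJA1 belong to the salicylate and jasmonate pathways, and both were lower in NIL-Bph6-RNAi. NH3 is a relative of NPR1, the coactivator through which salicylate switches on defence genes. It read 10.14, 9.88 and 10.63 in NIL-Bph6-RNAi, against 10.91, 11.17 and 11.13 in NIL-Bph6, a difference of -0.85 ± 0.17 (adjusted p = 0.0247). Each NIL-Bph6-RNAi array lay below each NIL-Bph6 array, but the call ended when NIL-Bph6 replicate 2 or 3 or NIL-Bph6-RNAi replicate 1 or 2 was left out (adjusted p up to 0.117). NINJA1 is an adaptor that links the JAZ repressors of jasmonate responses to a corepressor. It read 10.89, 11.04 and 10.84 in NIL-Bph6-RNAi, against 11.70, 11.63 and 11.65 in NIL-Bph6, a difference of -0.74 ± 0.09 (adjusted p = 0.000116). A second NINJA1 probe set read 8.10, 8.56 and 8.29 in NIL-Bph6-RNAi, against 9.50, 9.46 and 9.61 in NIL-Bph6, a difference of -1.20 ± 0.14 (adjusted p = 0.000156). NINJA1 was lower in NIL-Bph6-RNAi at 0 h and 48 h too, with differences of -0.52 and -0.60.

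Both SWEET genes called at 6 h were higher in NIL-Bph6-RNAi. SWEET proteins let sugars cross membranes, and some of them feed the phloem. SWEET16 (LOC4332795) read 8.34, 8.37 and 8.41 in NIL-Bph6-RNAi, against 6.02, 6.46 and 6.92 in NIL-Bph6, and was higher by 1.91 ± 0.30 (adjusted p = 0.00302). Its difference was 1.99 at 0 h and 1.33 at 48 h, both called. SWEET1B (LOC4338851) read 8.34, 8.39 and 8.57 in NIL-Bph6-RNAi, against 6.68, 7.14 and 7.83 in NIL-Bph6, and was higher by 1.22 ± 0.24 (adjusted p = 0.0208). The lines differed by -0.03 in SWEET1B at 0 h, and by 0.83 at 48 h (adjusted p = 0.0305). Within lines, which share these arrays with the line difference, SWEET1B at 6 h minus 0 h was 0.21 (adjusted p = 0.700) in NIL-Bph6-RNAi and -1.04 (adjusted p = 0.0204) in NIL-Bph6. Tested directly in limma, the SWEET1B line difference at 6 h minus that at 0 h was 1.24 ± 0.34 and did not pass (adjusted p = 0.227). The SWEET1B call at 6 h held without NIL-Bph6 replicate 3 and ended without any other single array (adjusted p up to 0.101). Of the 35 measured sugar transporter and invertase genes, these 2 were higher and 0 were lower, with a median difference of 0.07 on 1 probe set per gene, against 80 higher (0.488%) and 52 lower (0.317%) of all 16404 genes, or 0.805% in all, whose median was -0.0019.

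Among metabolic genes, CLA1 (LOC4338768) encodes the enzyme that opens the plastid pathway to isoprenoids, from which chlorophyll side chains, carotenoids and diterpenoids are built. CLA1 read 8.47, 8.13 and 8.59 in NIL-Bph6-RNAi, against 6.22, 5.07 and 6.00 in NIL-Bph6, and was higher by 2.63 ± 0.35 (adjusted p = 0.000573), with the mean of the NIL-Bph6 arrays just below the overall median. It was also higher at 0 h and 48 h, by 2.72 and 3.16. BGLU13 (LOC4336146), a beta-glucosidase gene of the family that frees sugars from glucosides, read 10.79, 11.33 and 11.18 in NIL-Bph6-RNAi, against 9.42, 8.63 and 9.48 in NIL-Bph6. It was higher by 1.92 ± 0.29 (adjusted p = 0.00181), by 0.85 at 0 h without passing the test (adjusted p = 0.183), and by 1.86 at 48 h. METK3 (LOC4325163) encodes a synthase of S-adenosylmethionine, the methyl donor and ethylene precursor. It read 7.17, 8.52 and 7.01 in NIL-Bph6-RNAi, against 6.06, 5.02 and 5.73 in NIL-Bph6, a difference of 1.96 ± 0.43 (adjusted p = 0.0381). That call ended without any single array but NIL-Bph6-RNAi replicate 3 (adjusted p up to 0.167). METK3 differed by 0.28 at 0 h (adjusted p = 0.768) and by 1.64 at 48 h (adjusted p = 0.0178).

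In the chloroplast, the light-harvesting protein gene LHCP (LOC4333359) read 14.29, 14.26 and 14.35 in NIL-Bph6-RNAi, against 13.68, 13.72 and 13.56 in NIL-Bph6. The arrays of the lines did not overlap, and the difference was 0.65 ± 0.14 (adjusted p = 0.0383). The difference was 0.27 at 0 h and -0.21 at 48 h, neither of them called. The LHCP call ended with median centring and without any 1 of the 6 arrays (adjusted p up to 0.152). Of the 19 measured photosynthesis genes, 1 was higher at 6 h and 0 were lower, and 16 of the 19 differences were positive, with a median of 0.19. At an unadjusted p under 0.05, 6 were higher and 0 were lower, against 6.57% higher and 4.9% lower of all genes. CHLH, a subunit of the enzyme that puts magnesium into chlorophyll, differed by 0.50 (adjusted p = 0.111), and the photosystem I subunit gene PSAH by 0.27 (adjusted p = 0.262). The list's mean by array was 11.75, 11.72 and 12.05 in NIL-Bph6-RNAi and 11.59, 11.72 and 11.60 in NIL-Bph6, so that the lines overlapped.

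SDH3-2 (LOC4343404), a subunit gene of succinate dehydrogenase in the respiratory chain, read 8.99, 8.27 and 8.66 in NIL-Bph6-RNAi, against 10.10, 10.30 and 10.35 in NIL-Bph6. The difference was -1.61 ± 0.15 (adjusted p = 7.69e-06), and -1.16 at 0 h and -1.88 at 48 h. VDAC5 (LOC4331978) and VDAC2 (LOC4339446) encode voltage-dependent anion channels, the pores of the outer membrane. VDAC5 read 12.08, 11.84 and 11.41 in NIL-Bph6-RNAi, against 12.38, 12.41 and 12.35 in NIL-Bph6, a difference of -0.60 ± 0.13 (adjusted p = 0.0273). VDAC2 read 12.54, 12.62 and 12.61 in NIL-Bph6-RNAi, against 13.01, 12.96 and 12.97 in NIL-Bph6, a difference of -0.39 ± 0.08 (adjusted p = 0.0236). Leaving out any single array but NIL-Bph6-RNAi replicate 1 ended the VDAC5 call (adjusted p up to 0.113). Leaving out any single array, or median centring, ended that of VDAC2. VDAC2 differed by -0.45 at 0 h and -0.45 at 48 h, and VDAC5 by -0.27 at 0 h (adjusted p = 0.309) and -1.15 at 48 h.

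In the nucleus, the histone gene H2B.10 (LOC4324495), whose product packs DNA, had the largest difference below zero of a named gene. It read 8.62, 8.87 and 8.51 in NIL-Bph6-RNAi, against 11.003, 10.91 and 11.13 in NIL-Bph6, a difference of -2.35 ± 0.35 (adjusted p = 0.00177). At 0 h the lines differed by -0.91 (adjusted p = 0.233) and at 48 h by -3.06. Within lines, on shared arrays, H2B.10 at 6 h minus 0 h was 0.16 (adjusted p = 0.856) in NIL-Bph6-RNAi and 1.603 (adjusted p = 0.0146) in NIL-Bph6. The H2B.10 line difference at 6 h minus that at 0 h was -1.44 ± 0.50 and did not pass limma's test (adjusted p = 0.256). The argonaute gene AGO18 (LOC4343201) encodes a small-RNA-binding protein with a known part in rice antiviral defence. It read 7.52, 7.15 and 7.52 in NIL-Bph6-RNAi, against 8.85, 8.36 and 9.23 in NIL-Bph6, a difference of -1.41 ± 0.24 (adjusted p = 0.00567, and 0.0559 with only the 6 h groups in the fit). AGO18 differed by -1.76 at 0 h, while the -0.22 at 48 h did not pass the test (adjusted p = 0.610). AGL20 (LOC4331445), a MADS-box gene of the class that promotes flowering in Arabidopsis, read 10.26, 10.49 and 10.09 in NIL-Bph6-RNAi, against 9.18, 9.20 and 9.13 in NIL-Bph6. It was higher by 1.11 ± 0.14 (adjusted p = 0.000233), by 0.70 at 0 h and by 1.03 at 48 h.

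The remaining named genes, apart from cap2, lie in protein folding, metal transport, cytokinin activation and membrane traffic. CLPB1 (LOC4339343), a chaperone gene whose product pulls aggregated proteins apart, read 7.48, 7.72 and 7.73 in NIL-Bph6-RNAi, against 5.54, 3.19 and 5.48 in NIL-Bph6, all 3 below the overall median. It was higher by 2.90 ± 0.49 (adjusted p = 0.00539, and 0.111 with only the 6 h groups in the fit), with 1.41 at 0 h and 1.43 at 48 h not called. Of 41 heat shock genes, CLPB1 was the only call, against 0.805% of all genes called and 0.488% called higher, and the list's median was 0.03. The yellow stripe-like metal transporter gene osysl6 (LOC4335676) read 12.04, 12.25 and 12.14 in NIL-Bph6-RNAi, against 11.62, 11.57 and 11.71 in NIL-Bph6. It was higher by 0.51 ± 0.10 (adjusted p = 0.0253), against 0.01 at 0 h and 0.14 at 48 h, and the call ended without any single array but NIL-Bph6-RNAi replicate 1 (adjusted p up to 0.122).

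LOGL7 (LOC4339472), a gene of the family that frees active cytokinin, read 5.68, 5.28 and 4.93 in NIL-Bph6-RNAi, against 6.56, 6.88 and 7.0 in NIL-Bph6. The difference was -1.52 ± 0.31 (adjusted p = 0.0264), with every NIL-Bph6-RNAi array under the overall median, and the call ended without any single array but NIL-Bph6-RNAi replicate 1 (adjusted p up to 0.124). A brighter probe set of LOGL7 was not called. On the brightest probe set of each gene, the lowest difference among the measured cytokinin genes was -0.754. SCAMP3 (LOC4339247), a secretory carrier membrane protein gene of vesicle traffic, read 12.17, 12.33 and 11.57 in NIL-Bph6-RNAi, against 12.87, 12.84 and 12.75 in NIL-Bph6. The difference was -0.80 ± 0.17 (adjusted p = 0.0398), and -1.49 at 48 h. Median centring, or leaving out any single array but NIL-Bph6-RNAi replicate 2, ended the SCAMP3 call (adjusted p up to 0.148). The gene named cap2 (LOC4331843) read 8.64, 9.01 and 8.97 in NIL-Bph6-RNAi, against 7.29, 6.40 and 7.62 in NIL-Bph6, a difference of 1.77 ± 0.40 (adjusted p = 0.0449) that ended without any single array but NIL-Bph6 replicate 3 (adjusted p up to 0.202). The calls of CLA1, BGLU13, SWEET16, AGL20, H2B.10, SDH3-2 and NINJA1 held without each single array. So did the calls of CLPB1 and AGO18, which ended only with the 6 h groups alone in the fit. Those of the genes whose call ended with 1 array left out also ended with only the 6 h groups in the fit, except LHCP.

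Among called genes with only a locus number, each taken by its probe set with the smallest p, the 4 largest differences on either side are given here. Probe sets with no annotated gene, 1 reporter among them, and other probe sets of a gene reached similar sizes. On 5 probe sets LOC4343954 on chromosome 7, named after its values were seen, differed by 3.03 to 7.97, and the one at 7.97 read 9.49, 9.08 and 9.61 in NIL-Bph6-RNAi, against 3.13, 0.84 and 0.30 in NIL-Bph6 (adjusted p = 9.67e-07). LOC4338784 on chromosome 5 read 9.66, 8.73 and 9.0 in NIL-Bph6-RNAi, against 3.93, 1.36 and 0.41 in NIL-Bph6, a difference of 7.23 ± 0.86, and its adjusted p of 0.000146 became 0.0545 under a stricter filter on low values. LOC4340325 on chromosome 6 read 11.58, 11.45 and 11.54 in NIL-Bph6-RNAi, against 5.53, 5.57 and 5.59 in NIL-Bph6, a difference of 5.96 ± 0.18 (adjusted p = 5.86e-12). LOC4346152 on chromosome 8 differed by 5.43 ± 0.67 and LOC4331306 on chromosome 3 by 5.35 ± 0.56. In each of these 4 genes the NIL-Bph6 arrays stayed below the overall median while the NIL-Bph6-RNAi arrays lay well above it.

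On the lower side, LOC4339382 on chromosome 5 read 4.06, 5.4 and 5.11 in NIL-Bph6-RNAi, against 10.99, 10.79 and 10.73 in NIL-Bph6, a difference of -5.98 ± 0.32. LOC4343458 on chromosome 7 read 1.90, 1.92 and 2.04 in NIL-Bph6-RNAi, against 7.71, 8.08 and 8.34 in NIL-Bph6, a difference of -6.09 ± 0.67. LOC4339505 and LOC9268712, both on chromosome 5, differed by -5.98 ± 0.42 and -5.86 ± 0.61. All 8 of these genes were also called at 0 h and 48 h in the same direction. Of the 54 probe sets that differed by 16-fold or more at 6 h, 46 had the mean of the lower line below the overall median, and the deposited table holds no detection calls, so the size of such a difference is not a ratio of 2 detected signals.

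Most of the probe sets called at 6 h were also called at another time. The group means at each time come from separate arrays, but 1 fit over all 18 gives the 3 contrasts a shared estimate of the spread, so the calls are not independent, and with only the 6 h groups in the fit 191 were called at 6 h. Before feeding, 1.41% of all probe sets were called between the lines, 0.544% higher and 0.862% lower in NIL-Bph6-RNAi. Of the 282 called at 6 h, 150 were called in the same direction at 0 h, 97 higher and 53 lower, which is 53.2% of the 6 h list and 32.6% of the 0 h list. At 48 h, 13.6% of all were called, 4.8% higher and 8.79% lower. Of the 282, 214 were called in the same direction at 48 h, 136 higher and 78 lower, which is 75.9% of the 6 h list and 4.81% of the far longer 48 h list. In all, 140 were called at all 3 times, 89 higher and 51 lower in NIL-Bph6-RNAi. A further 74 were called at 6 h and 48 h and not at 0 h, 10 at 0 h and 6 h and not at 48 h, and 55 at neither other time. Of the 54 probe sets at 16-fold or more, 50 were called at all 3 times, and of the 160 under 4-fold, 44 were.

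The sizes of these sets are given next, but the sets were picked by calls on the same differences. That choice alone favours small medians at a time without a call, so the medians are descriptive only. The 140 had a median absolute difference of 2.91 at 6 h, 3.10 at 0 h and 2.96 at 48 h. The 74 had medians of 1.11 at 6 h, 0.451 at 0 h and 1.13 at 48 h. The 55 had medians of 1.21 at 6 h, 0.343 at 0 h and 0.371 at 48 h, and among their 35 higher and 20 lower probe sets were those of CLPB1, cap2, osysl6, LHCP and LOGL7. A call at 1 time and not at another does not show that the difference changed, and that was tested on its own.

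**Figure D2:**
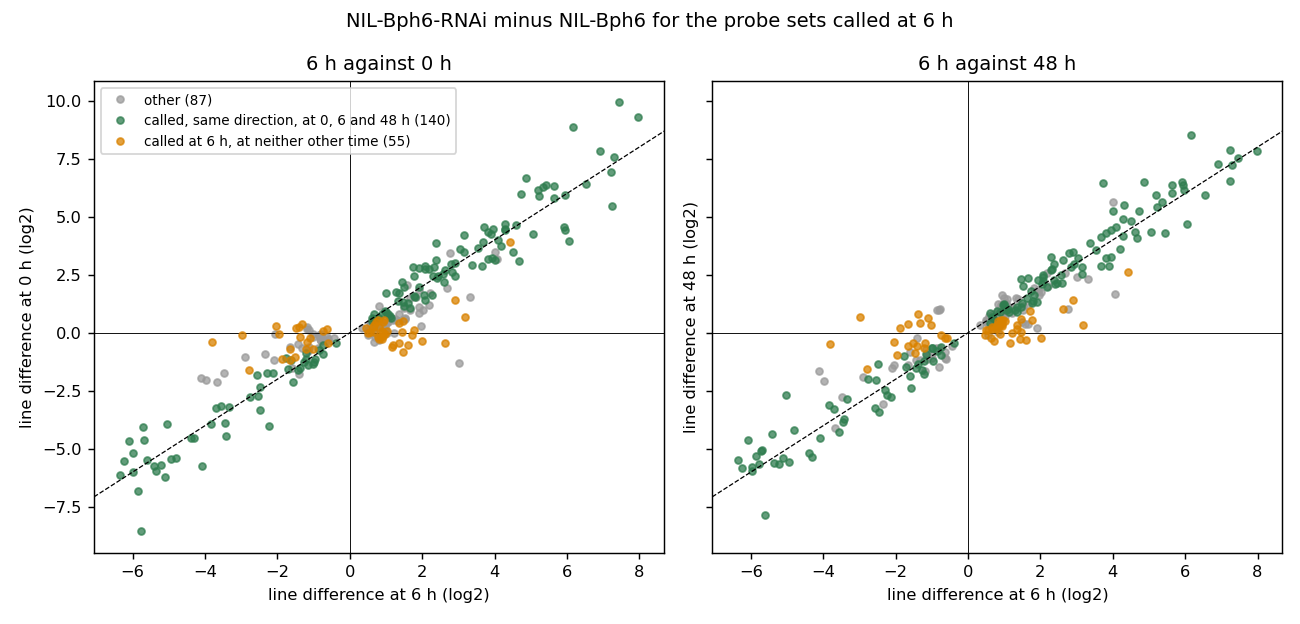
NIL-Bph6-RNAi minus NIL-Bph6 (log2) for the 282 probe sets called at 6 h, with the 6 h difference on the horizontal axis and that at 0 h (left) or 48 h (right) on the vertical axis, and a dashed line where both are equal. The 140 probe sets called at all 3 times lie along the line over the whole range. The 55 called at neither other time lie nearer to the horizontal zero line, which picking them by these calls favours.

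Tested directly, the line difference at 6 h differed from that at 0 h for 2 of 32732 probe sets (0.00611%) in limma, and 4898 passed an unadjusted p under 0.05. Those 2, LOC4337638 and LOC4338474, were not called at 6 h themselves, where they differed by 0.91 (adjusted p = 0.255) and 0.41 (adjusted p = 0.350). Leaving out any NIL-Bph6-RNAi 6 h array, replicate 1 or 2 of NIL-Bph6-RNAi at 0 h, or replicate 2 or 3 of NIL-Bph6 at 6 h left 0 calls. There were 53 when replicate 2 of NIL-Bph6 at 0 h was dropped, 1 when its replicate 1 or 3 was, and 14 when replicate 1 of NIL-Bph6 at 6 h was.

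The line difference at 6 h differed from that at 48 h for 136 probe sets (0.415%), of which 10 were among the 282. NH3 was one of 3 genes called in opposite directions at the 2 times. In NH3 the lines differed by -0.85 at 6 h and 0.96 at 48 h (adjusted p = 0.00215), a change of -1.82 ± 0.25 (adjusted p = 0.0155), after -0.09 at 0 h. Within lines, on shared arrays, NH3 at 6 h minus 0 h was 0.30 (adjusted p = 0.364) in NIL-Bph6-RNAi and 1.06 (adjusted p = 0.00238) in NIL-Bph6. The NH3 line difference at 6 h minus that at 0 h was -0.76 ± 0.25 and did not pass limma's test (adjusted p = 0.245). The other 2, named here after their values were seen, were LOC4333970 on chromosome 3 and LOC4349481 on chromosome 10.

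LOC4333970 read 10.96, 10.92 and 11.19 in NIL-Bph6-RNAi at 6 h, against 11.77, 11.80 and 11.89 in NIL-Bph6, a difference of -0.80 ± 0.17 (adjusted p = 0.0345). At 48 h its difference was 0.99 (adjusted p = 0.00169). LOC4349481 read 10.55, 10.67 and 11.12 in NIL-Bph6-RNAi at 6 h, against 11.51, 11.49 and 11.68 in NIL-Bph6, a difference of -0.78 ± 0.17 (adjusted p = 0.0380). At 48 h its difference was 1.03 (adjusted p = 0.00131). Neither was called at 0 h, where they differed by -0.35 and -0.33. The 6 h call of LOC4333970 ended with median centring and without any 1 of the 6 arrays (adjusted p up to 0.132), and that of LOC4349481 with median centring and without any single array but NIL-Bph6-RNAi replicate 3 (adjusted p up to 0.161). The 6 h minus 48 h calls of LOC4333970, LOC4349481 and NH3 ended without NIL-Bph6-RNAi 6 h replicate 1, NIL-Bph6 6 h replicate 3 or NIL-Bph6 48 h replicate 1, and in a fit to the 6 h and 48 h arrays alone (adjusted p up to 0.0733).

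Several jasmonate genes had the same order of values without a call at 6 h. Of the 34 measured jasmonate genes, 0 were higher and 1, NINJA1, was lower at 6 h, with a median difference of -0.09, against 10 higher and 1 lower at 48 h, where 5.99% of all genes were higher and 11.5% lower. The line difference at 6 h minus that at 48 h passed the test for 5 of the 34, all below zero, against 0.396% of all genes below zero. JAMYB, a jasmonate-induced MYB factor gene, differed by -1.14 at 6 h (adjusted p = 0.158) and 1.78 at 48 h, a change of -2.92 ± 0.47 (adjusted p = 0.0283). The lipoxygenase gene lox2osPil, of the enzyme class that starts jasmonate synthesis, differed by -1.56 at 6 h (adjusted p = 0.169) and 1.58 at 48 h, a change of -3.14 ± 0.65 (adjusted p = 0.0462). In both, each NIL-Bph6-RNAi array at 6 h read below each NIL-Bph6 array, at 9.21, 8.81 and 9.03 against 9.68, 10.27 and 10.51 for JAMYB and at 7.73, 7.31 and 8.12 against 9.83, 8.28 and 9.72 for lox2osPil. Both genes were picked by a contrast that holds this 6 h difference, and 8.3% of all genes were separated in that direction. The list's mean by array at 6 h was 10.99, 11.13 and 11.17 in NIL-Bph6-RNAi and 11.36, 11.01 and 11.36 in NIL-Bph6, so that the lines overlapped.

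The repressor genes JAZ5 and JAZ6 differed by -0.93 and -0.65 at 6 h and by 1.75 and 0.98 at 48 h, with changes of -2.68 (adjusted p = 0.0251) and -1.63 (adjusted p = 0.0376). The allene oxide synthase gene AOS (LOC4332121), of jasmonate synthesis, differed by 0.03 at 6 h and 1.40 at 48 h, a change of -1.38 (adjusted p = 0.0376). The 5 jasmonate calls ended without those same 3 arrays and some others, with an adjusted p of up to 0.155 for lox2osPil, 0.117 for JAZ6, 0.116 for AOS, 0.101 for JAMYB and 0.092 for JAZ5 over the alternatives run, and none changed sign. The count of 136 moved widely with single arrays. Of the NIL-Bph6-RNAi arrays at 6 h, dropping replicate 1 left 0 calls, dropping replicate 2 left 5 and dropping replicate 3 gave 1036. For NIL-Bph6 at 6 h, dropping replicates 1, 2 and 3 in turn left 43, 40 and 0. At 48 h, 28 were left when NIL-Bph6-RNAi replicate 1 was dropped and 84 when its replicate 3 was, and 0 when NIL-Bph6 replicate 1 was dropped and 3 when its replicate 3 was.

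**Figure D3:**
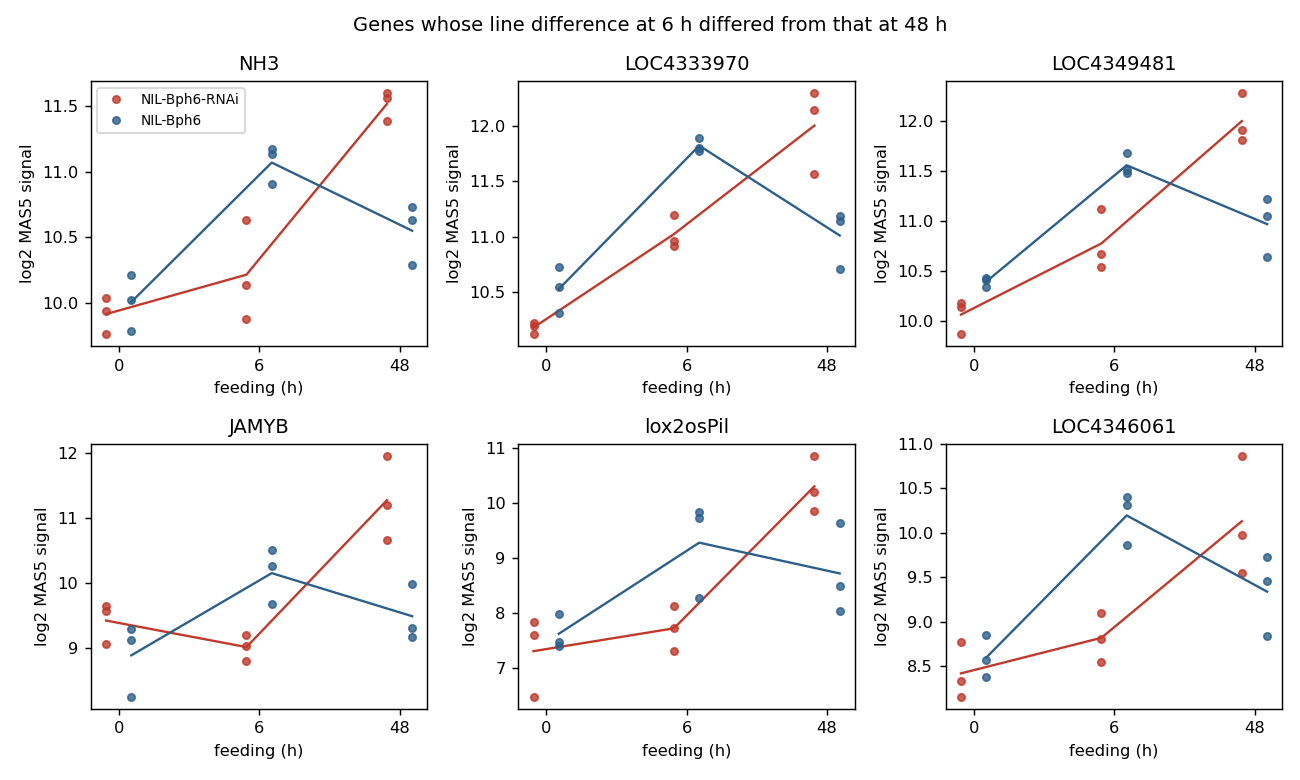
Deposited log2 MAS5 signal (vertical axis, scaled for each gene) at 0, 6 and 48 h of feeding (horizontal axis, not to scale) for 6 genes whose line difference at 6 h differed from that at 48 h, with a point per array, 3 per group, and lines through the group means. NIL-Bph6-RNAi lies below NIL-Bph6 at 6 h and above it at 48 h in each panel, as for NH3 with differences of -0.85 and 0.96. However, JAMYB and lox2osPil were not called at 6 h, and LOC4346061 was not called at 48 h. The 6 genes were picked by hand.

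Genes of other defence pathways are set here against 0.488% of all genes called higher and 0.317% called lower at 6 h, and 6.57% higher and 4.9% lower at an unadjusted p under 0.05. Of 17 salicylate genes, 0 were higher and 1, NH3, was lower, with a median of 0.12. Of 6 WRKY factor genes, 0 were called and 2, both lower, passed an unadjusted p under 0.05, with a median of -0.07, and the 2 largest values were WRKY76 at -1.29 (adjusted p = 0.162) and WRKY62 at -0.80 (adjusted p = 0.418). Of the 17 genes of diterpenoid phytoalexin synthesis, 0 were called and 0 passed an unadjusted p under 0.05, with a median difference of -0.08, against -1.63 at 0 h and 0.20 at 48 h. Their mean was 8.79, 7.84 and 9.44 on the NIL-Bph6-RNAi arrays and 9.61, 7.40 and 9.27 on the NIL-Bph6 arrays. Replicate 2 was the lowest in both lines, so the spread within each line exceeded the difference between them. Of 20 chitinase and pathogenesis-related genes, 1, Cht1, was higher and 0 were lower.

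The same shares of all genes apply to the next lists, with 5.99% higher and 11.5% lower at 48 h. Of the 11 listed genes of the exocyst, vesicle traffic and callose, 0 were called, 1 lower passed an unadjusted p under 0.05 and 2 of the 11 differences were positive, with a median of -0.17, against -0.77 with 6 lower at 48 h. SCAMP3, called lower at 6 h, is not on this list. Their mean was 10.52, 10.46 and 9.77 on the NIL-Bph6-RNAi arrays and 10.55, 10.58 and 10.38 on the NIL-Bph6 arrays, with NIL-Bph6-RNAi replicate 3 the lowest. Of 59 cell wall genes, 0 were called at 6 h and 1 higher and 2 lower passed an unadjusted p under 0.05, with a median of -0.09, against 2 higher and 20 lower at 48 h, and NIL-Bph6-RNAi replicate 3 again had the lowest mean, 9.46 against 9.76 to 9.87 on the other 5 arrays. Of 51 cell cycle and histone genes, 1, H2B.10, was lower, with a median of -0.17, against 26 lower at 48 h. Of 27 cytokinin genes 0 were called, since LOGL7 was called through a second, dimmer probe set, and 1 higher and 5 lower passed an unadjusted p under 0.05. Of 53 auxin genes 0 were called, with a median of -0.12, and at that unadjusted threshold 1 was higher and 6 were lower. In 13 of the 53 every NIL-Bph6-RNAi array lay below every NIL-Bph6 array and in 2 above, against 8.3% and 10.6% of all genes. The auxin list's mean was 9.71, 9.69 and 9.59 on the NIL-Bph6-RNAi arrays and 9.85, 9.85 and 9.83 on the NIL-Bph6 arrays, with no overlap. Of 76 calcium signalling genes 0 were called, with a median of 0.0047, and 5 higher and 4 lower passed an unadjusted p under 0.05. The limits of 3 arrays per line bear on these counts of 0, which do not show that the lines were alike.

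Of the 52 measured metal homeostasis genes, 35 had positive differences at 6 h, over a range of -0.97 to 1.597. One, osysl6, was higher and 0 were lower, against 0.488% and 0.317% of all genes, while at an unadjusted p under 0.05, 13 were higher and 1 was lower, against 6.57% and 4.9% of all genes. In 15 of the 52 every NIL-Bph6-RNAi array lay above every NIL-Bph6 array and in 2 below, against 10.6% and 8.3% of all genes. The list's mean was 9.82, 9.84 and 9.82 on the NIL-Bph6-RNAi arrays and 9.72, 9.68 and 9.65 on the NIL-Bph6 arrays, with no overlap, and its median difference was 0.15, against -0.07 at 0 h and 0.20 at 48 h. Such separation was not particular to metal genes. The 6 h means of the auxin list, of the sugar transport list and of the list of peroxidases, catalases and glutathione transferases did not overlap either. Among the metal homeostasis genes were 7 metallothionein genes, which encode small metal-binding proteins. None of the 7 was called, and their differences were 0.26 for MT2B, 0.27 for MT2C, 0.20 for MT1A, 0.26 for MT2A, 0.54 for MT4A, 0.02 for MT1B and 1.597 for MT4C (adjusted p of 0.153 or more). The 11 measured genes listed for seed, anther and root had means of 7.88, 8.04 and 7.92 on the NIL-Bph6-RNAi arrays and 7.44, 7.71 and 7.74 on the NIL-Bph6 arrays. None was called, and 9 of the 11 differences were positive, against 8137 of all 16404 genes. The part of other cells in any result here was not tested.

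**Figure D4:**
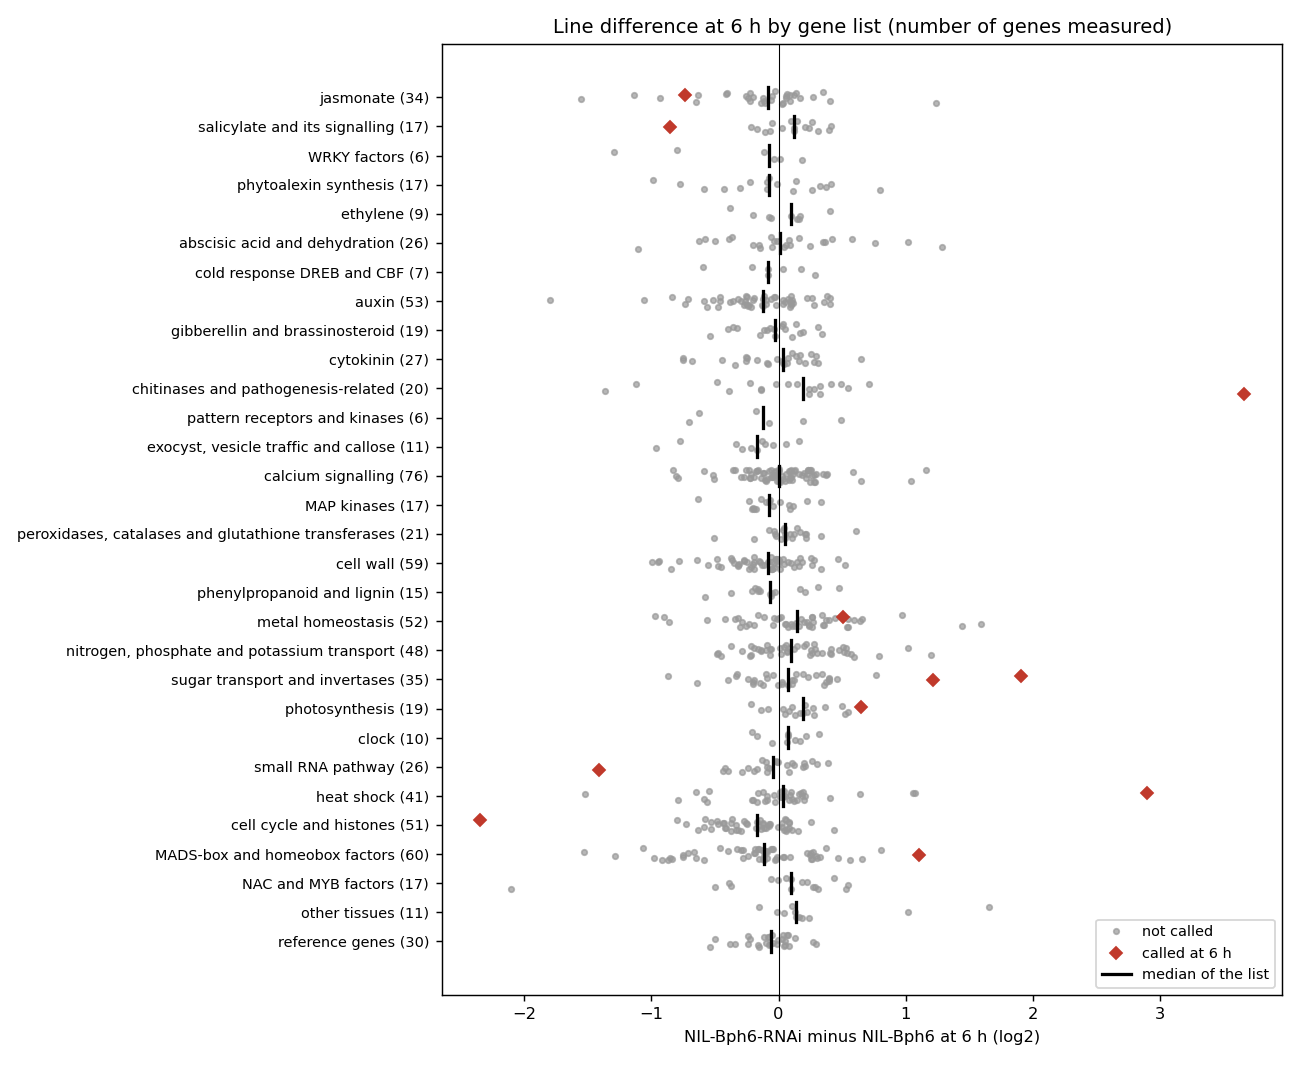
NIL-Bph6-RNAi minus NIL-Bph6 at 6 h (horizontal axis, log2) for each gene of 30 lists (rows, with the number measured), with grey points for genes not called, red diamonds for genes called and a black bar at each list's median. The medians lie within 0.2 of zero, and no list has more than 2 called genes.

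The called genes were unevenly placed in the genome. By RefSeq gene order, 159 of 16402 placed genes (0.969%) were called at 6 h on any of their probe sets. Chromosome 5 held 54 of its 1369 (3.94%), 26 higher and 28 lower, and chromosome 3 held 37 of 2288 (1.62%), 30 higher and 7 lower. Chromosomes 7 and 8 held 16 (1.28%) and 13 (1.2%), while chromosome 9 held 0 of 878. Grouped after these counts had been seen, chromosomes 3, 5, 7 and 8 held 120 of 5997 genes called at 6 h and the other 8 held 39 of 10405. Of genes called at all 3 times, 67 lay on those 4 chromosomes and 6 elsewhere, and of genes called at neither 0 h nor 48 h, 15 lay there and 16 elsewhere.

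**Figure D5:**
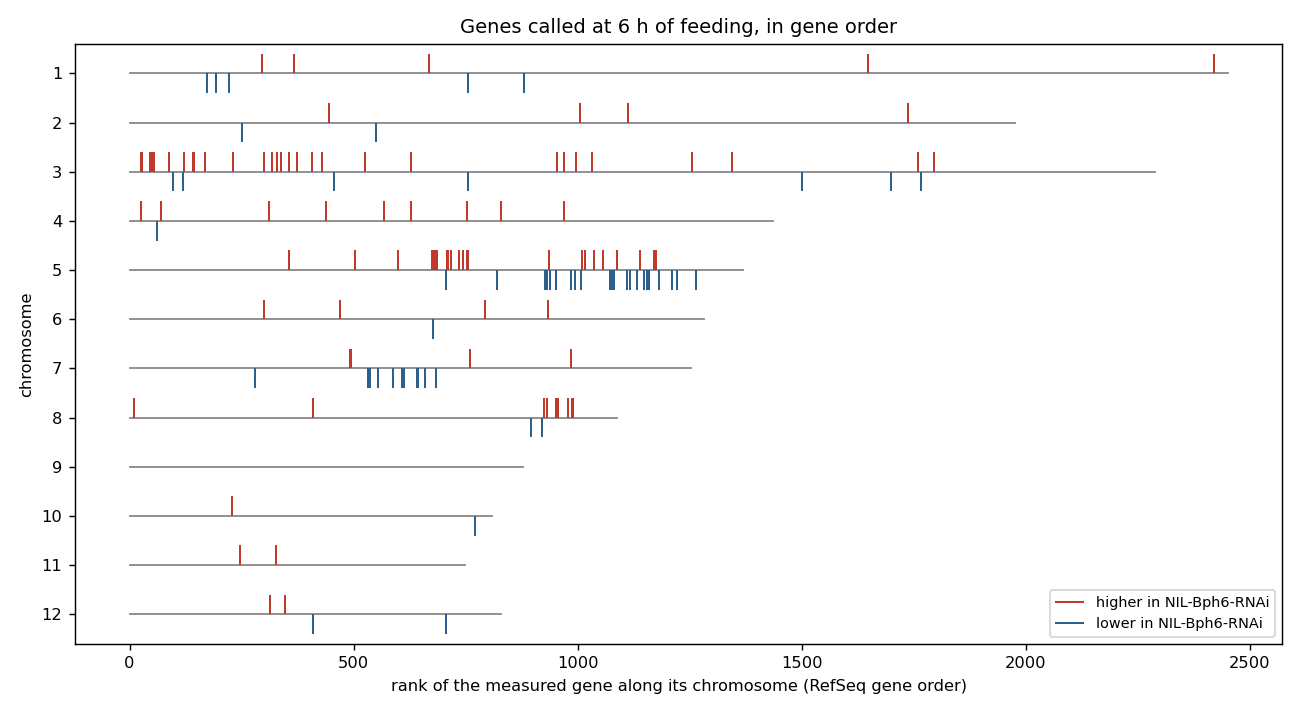
Genes called at 6 h by chromosome (rows) and rank of the measured gene along it (horizontal axis, RefSeq gene order), with red ticks above the line for genes higher and blue ticks below it for genes lower in NIL-Bph6-RNAi. Ticks crowd on chromosome 5, with 54 genes, and in stretches of chromosomes 3, 7 and 8, while chromosome 9 has 0.

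Runs in which at least 4 of 6 consecutive measured genes were called occurred 3 times, and in each the called genes went 1 way. The run around Cht1 on chromosome 5 held 11 genes with 7 higher in NIL-Bph6-RNAi, from 0.66 for LOC4338729 to 4.51 for LOC4338724, and all 7 were called at 0 h and 48 h too. LOC4338721, inside that run, had the opposite sign, with -1.75 at 6 h (adjusted p = 0.416) and called differences of -4.15 at 0 h and -2.73 at 48 h. The 6 h call of LOC4338729 ended without NIL-Bph6-RNAi replicate 3 or NIL-Bph6 replicate 1 (adjusted p up to 0.0929), and that of LOC4338724 without NIL-Bph6 replicate 3 (adjusted p = 0.0595). A second run on chromosome 5 held 7 genes with 6 lower, from -3.44 for LOC4339506 to -5.98 for LOC4339505, again all called at 0 h and 48 h, and the seventh, LOC4339502, differed by -2.70 (adjusted p = 0.054). The run on chromosome 8 held 6 genes with 4 higher, LOC4346152 at 5.43, LOC4346150 at 3.38, LOC9269842 at 2.57 and LOC4346154 at 0.58. LOC4346154 was not called at 0 h (adjusted p = 0.184). Its 6 h call ended without any single array but NIL-Bph6-RNAi replicate 2 (adjusted p up to 0.169) and with only the 6 h groups in the fit (adjusted p = 0.222), and without that call 3 of the 6 genes are called, too few for a run. Between LOC4346154 and LOC4346152 lies SWEET11, a sugar exporter gene, which differed by -0.87 (adjusted p = 0.464). Neighbouring genes of a family can share probe sequence, and whether signal was shared within these runs was not tested.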

How the data were processed

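The deposited values are log2 MAS5 signals per probe set. MAS5 is named in the submitters' processing notes, and log base and scaling were read from the values, whose 2% trimmed linear mean lay between 500.067 and 500.079 on every array. The 123 control probe sets were left out, and a probe set stayed in where 3 or more arrays read above 5.78, the overall median, which left 32732 of 57258. In R 4.3.3, limma 3.58.1 fitted 6 group means over all 18 arrays with an intensity trend, and Benjamini-Hochberg adjustment covered all probe sets kept. On simulated data for the 6 h comparison, 35 of 100 probe sets changed by 1 log2 unit and 76 of 100 changed by 2 were recovered, with 7 false calls. The simulated noise was normal and independent for every value, with no deviation shared across an array, so these rates need not hold for the real arrays. Names come from the platform annotation and a RefSeq gene table (assembly ASM3414082v1), used for names, chromosome and order alone.

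Named genes are up to 12 of the largest differences each way, taken from calls whose groups do not overlap and that carry a single named gene, the 4 largest each way with only a locus number, called list members, the 4 largest each way of both tests between times, and genes of runs. A named gene with several probe sets was taken by the one with the smallest p, and list counts used the brightest. The comparison, lists and rules were chosen with earlier results of these data known. Alternatives covered scaling, filters, the variance model, array weights, a 3' to 5' covariate, an offset, a fold minimum, the compared groups alone, a replicate block and leaving out each array. Same-numbered arrays of the lines deviated together at r of -0.04, 0.03 and 0.09 at 6 h, so numbers were not taken as pairs. Figures used Python 3.11.15 with pandas 2.3.3 and matplotlib 3.10.9.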

Additional observations from a re-analysis of the deposited data

Results flagged for a closer look

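The line difference (NIL-Bph6-RNAi minus NIL-Bph6) at 6 h differed from that at 0 h for 2 probe sets and from that at 48 h for 136, by limma's test of the difference between times. At 6 h minus 0 h these were LOC4337638 at 3.28 ± 0.43 and LOC4338474 at 1.82 ± 0.23 (± SE, adjusted p = 0.0172 for both). The 4 largest values above zero at 6 h minus 48 h were LOC9270481 at 4.27, LOC4351585 at 3.56, LOC4335569 at 3.39 and LOC4332233 at 3.35, and their 6 h differences were 1.08, 0.66, 0.29 and 0.48, none called. The 4 largest below zero were LOC4324781 at -3.33, lox2osPil at -3.14, JAMYB at -2.92 and LOC107278342 at -2.71.

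The 10 probe sets called both at 6 h and for 6 h minus 48 h included NH3 at -1.82, LOC4349481 at -1.81, LOC4333970 at -1.79, LOC4346061 at -2.17 and LOC4332412 at -1.74. LOC4343604 was called by 2 probe sets at 1.09 and 0.65, and LOC4326393 stood at 1.59. Another 2 probe sets with no annotated gene stood at -1.35 and 1.03.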

How the results depend on the processing

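Of 46 genes named for 6 h, 22 were called under every alternative that kept their probe set, and the direction reversed for 0 of the 46. One alternative also required a 2-fold difference, which a gene under 2-fold fails by definition. NINJA1, LOC4338716 and LOC4338726 are outside the 22 for that reason alone. Genes removed by a filter were not scored under it, as CLA1 and SWEET16 under the stricter filter on low values. The 282 calls at 6 h became 727 with array weights (378 higher and 349 lower in NIL-Bph6-RNAi) and 179 to 233 with 1 array left out, 179 without NIL-Bph6 6 h replicate 2, while the other alternatives gave 191 to 322. The 2 calls at 6 h minus 0 h became 0 without the intensity trend, 1066 with array weights, 5 with the compared groups alone and 0 to 53 with 1 array left out. The 136 at 6 h minus 48 h became 90 with no filter, 9 without the trend, 1039 with array weights, 6 with the compared groups alone and 0 to 1036 with 1 array left out. Their split was 51 above and 85 below zero, and 34 and 92 with median centring. The 150 calls shared with 0 h became 98 under the stricter filter, 335 with array weights and 121 to 149 with 1 array left out. The 214 shared with 48 h became 323 with array weights and 145 to 207 with 1 array left out. With the replicate number as a block the 5 counts were 261, 2, 167, 149 and 204. The cause of these moves was not tested. Precision is limited by 3 arrays per group and, for signals near or below 5.78, by the lack of detection calls.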
